A study of Mus musculus with 6 samples.

Results

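The 61 genes described here carry the names of cytosolic ribosomal proteins, and 60 of them are listed as protein-coding in the RefSeq table (Rps4l is not). They were taken by symbol: every gene whose mouse symbol follows the pattern of a large subunit protein (Rpl and a number, with Rplp0, Rplp1 and Rplp2) or a small subunit protein (Rps and a number, with Rpsa), and which had a probe set that named that gene alone. Of 19938 genes measured in this way, 61 were members, 38 of the large and 23 of the small subunit. A gene with several probe sets was read by the one with the highest mean over the 6 arrays. A further 18 genes of this naming pattern (Rpl11, Rpl13a, Rpl15, Rpl17, Rpl22l1, Rpl3, Rpl31, Rpl32, Rpl35, Rpl35a, Rpl36al, Rpl37, Rpl39, Rps16, Rps23, Rps24, Rps26 and Rps27) were named only by probe sets shared with other genes and were not members. The rule uses names alone, although it was set with earlier results of these data known.

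The RNA came from LSK CD150- cells, an early blood progenitor fraction sorted from mouse bone marrow that carries Sca-1 and Kit but neither mature lineage markers nor CD150. The controls were 3 mice with both Cebpa alleles flanked by loxP sites (Cebpafl/fl), and the deleted group was 3 mice that carried Mx1Cre in addition (Cebpafl/fl;Mx1Cre). All 6 mice received pIpC, a double-stranded RNA that switches on the Mx1 promoter, and were taken at day 18, so the interferon-type stimulus was common to both groups, while Cre itself was present only in the deleted group. The Mx1 promoter responds to interferon in many cell types and so does not restrict deletion to blood cells. Each mouse had its own Affymetrix Mouse Gene 1.0 ST array, and values are log2 intensities as the authors deposited them. The comparison asks how transcript levels in these progenitors differ when Cebpa, which encodes the granulocyte and monocyte transcription factor C/EBPα, has been deleted.

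A ribosome is built from a small subunit, which reads the messenger RNA, and a large subunit, which joins the amino acids, and each subunit holds ribosomal RNA and many proteins, nearly all of them present once. Most of these proteins are needed in every cell, and their messenger RNAs are among the most abundant. Many of the messengers begin with a 5′ terminal run of pyrimidines, through which TOR signalling controls their translation. In blood-forming tissue, loss of a single copy of certain of these genes is known to impair red cell production, and a few members have paralogues that are restricted to muscle, testis or stress responses.

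Sequences around the annotated transcription starts are shown first, because messengers of this family are best known for the pyrimidine run at their start. RefSeq's GRCm38.p6 table held 58 starts of 49 members. The starts of Rpl7, Rpl8, Rpl21, Rpl23a, Rpl29, Rpl30, Rpl36, Rplp1, Rps4l, Rps14, Rps20 and Rps29 were not analysed here. Each line gives 30 bases, 15 before and 15 from the annotated start on, in the direction of transcription, with the longest unbroken run of C or T in capitals. The first 5 genes hold a run of 8 or more, and the last 5 do not. They were picked to cover members with large and with small differences between the genotypes.

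Rpl7a (chr2:26910792-26910821, plus strand): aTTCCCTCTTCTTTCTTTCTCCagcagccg
Rps10 (chr17:27635230-27635259, minus strand): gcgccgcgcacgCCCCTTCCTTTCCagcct
Rplp2 (chr7:141447636-141447665, plus strand): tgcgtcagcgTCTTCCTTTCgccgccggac
Rps6 (chr4:86857353-86857382, minus strand): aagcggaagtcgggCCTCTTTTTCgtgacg
Rpl4 (chr9:64173372-64173401, plus strand): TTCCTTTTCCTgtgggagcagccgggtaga
Rplp0 (chr5:115559452-115559481, plus strand): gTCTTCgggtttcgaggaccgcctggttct
Rpl10 (chrX:74270801-74270830, plus strand): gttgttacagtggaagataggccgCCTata
Rps4x (chrX:102189377-102189406, minus strand): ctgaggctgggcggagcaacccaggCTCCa
Rpl22 (chr4:152324421-152324450, plus strand): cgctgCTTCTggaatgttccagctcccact
Rpl10l (chr12:66284387-66284416, minus strand): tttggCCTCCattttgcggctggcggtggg

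A run of 8 or more pyrimidines lay within these 30 bases at 18 of 58 member starts (31%), from 17 genes. The same run was found at 3943 of 32851 starts of all genes in the table (12%). Rpl7a held the longest of the printed runs, 21 bases. The difference between genotypes was alike with and without it: the median log2 fold change was -0.15 in the 17 genes with such a run, -0.16 in the 32 with a shorter one and -0.15 in the 12 whose start was not analysed. The windows of Rps10 and Rpl4 both hold a long run, which spans the annotated start in Rps10 and ends before it in Rpl4, and their log2 fold changes were -0.43 and -0.01. An annotated start can lie some bases from the one used in these cells, and a match is a description of the letters only.

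The 250 bases before a start are printed for 3 members. Rps6 has 2 of the motifs searched, and Rpl22 has 3 others before the start shown and a positive fold change. Another annotated start of Rpl22 (window chr4:152325711-152325740) had no match in the 250 bases before it. Rplp0 had the most negative fold change and no match in the 250 bases printed (TATAAA is matched after its start). Capitals mark the matches, which do not overlap each other in these sequences.

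Rps6 (chr4:86857368-86857617, minus strand): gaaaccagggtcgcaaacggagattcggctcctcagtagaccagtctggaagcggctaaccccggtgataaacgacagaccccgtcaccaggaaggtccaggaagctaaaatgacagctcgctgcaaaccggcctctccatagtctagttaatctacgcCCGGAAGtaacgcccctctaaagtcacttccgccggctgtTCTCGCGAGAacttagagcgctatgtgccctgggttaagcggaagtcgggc
Rpl22 (chr4:152324186-152324435, plus strand): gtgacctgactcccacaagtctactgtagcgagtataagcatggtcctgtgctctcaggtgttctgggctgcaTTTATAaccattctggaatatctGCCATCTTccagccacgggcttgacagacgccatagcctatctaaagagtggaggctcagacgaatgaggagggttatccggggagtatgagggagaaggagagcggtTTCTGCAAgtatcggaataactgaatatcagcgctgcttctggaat
Rplp0 (chr5:115559217-115559466, plus strand): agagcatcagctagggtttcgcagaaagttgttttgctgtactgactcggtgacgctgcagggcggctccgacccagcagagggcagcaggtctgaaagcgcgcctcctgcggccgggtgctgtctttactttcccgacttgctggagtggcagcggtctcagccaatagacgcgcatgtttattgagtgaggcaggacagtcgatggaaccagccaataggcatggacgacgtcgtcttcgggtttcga

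In Rps6 the first block is CCGGAAG, the core bound by ETS family factors, 91 bases before the start, and the second is the palindrome TCTCGCGAGA, 51 bases before it. In Rpl22 the blocks, from left to right, match TATAAA, AAGATGGC (the core of YY1 sites) and TTNNGCAA (the core of sites bound by C/EBP proteins), read on either strand. Over 300 bases, 250 before to 50 after the start, and on both strands, CCGGAAG was present in 34.5% of member promoters and 8.86% of all promoters. TCTCGCGAGA was present in 12.1% against 0.466%, AAGATGGC in 5.17% against 2.75%, TATAAA in 10.3% against 13.6% and TTNNGCAA in 6.9% against 10.8%. Member promoters had a median GC content of 57% and all promoters one of 52.7%, a further difference between the sets. Members with and without CCGGAAG had median log2 fold changes of -0.12 and -0.16. For TTNNGCAA, present in Rpl10a, Rpl22, Rpl23 and Rpl32l, the medians were -0.15 and -0.16.

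Before the values of the members, the arrays were set against their labels. Cebpa read 7.84, 7.85 and 7.73 in controls a, b and c and 6.37, 5.82 and 6.09 in deleted a, b and c. It fell by 1.71 ± 0.14 (log2, SE, n = 3 per genotype; limma, Benjamini-Hochberg adjusted p = 8.83e-04), in the direction of the labels. The mice are labelled female, yet the Y-linked genes Eif2s3y and Kdm5d read between 8.04 and 8.49 on all 6 arrays and Xist, which is transcribed from the inactive X of females, between 4.46 and 5.13. This was alike in both genotypes. Of the markers of the sorted fraction, Kit read 10.02, 10.31 and 10.10 in controls against 9.59, 9.37 and 9.23 in deleted mice and fell (limma adjusted p = 0.027). Slamf1, which encodes CD150, lay below the median of all values on every array, and Ly6a, which encodes Sca-1, was not analysed here.

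Markers of other cells also differed. The summed level of 7 neutrophil granule and marker genes was 11.62 to 11.98 (log2) in controls and 11.32 to 11.96 in deleted mice. This sum adds unlogged values, so Mpo, the brightest at a mean of 11.26, weighed most, and its log2 fold change was 0.25. Of the 7 genes, 6 had fold changes below 0, and 3 fell (S100a8 by -3.51, S100a9 by -3.37 and Camp by -0.97). The sum of 4 mast cell and basophil genes was 8.63 to 8.73 against 11.35 to 11.70. This rise mainly followed Cpa3 (log2 fold change 3.47), while Mcpt8 was about level (0.09, limma adjusted p = 0.84). Ms4a2 and Fcer1a lay below the median of all values on every array. For 3 monocyte genes the sums were 8.32 to 8.45 against 7.84 to 7.99, with Cd68 falling and Csf1r and Ccr2 below that median throughout. In the erythroid (2 genes measured), megakaryocyte (3), B cell (4) and T and NK cell (5) lists no gene passed the test. What part these cells had in the values of the ribosomal protein genes was not tested. In such bulk samples a lower share of cells rich in a transcript and less of it per cell cannot be told apart.

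On the deposited scale the members read slightly lower, and nearly all in the same direction, in cells from the deleted mice. The log2 fold change, deleted minus control, was below 0 in 57 of 61 members (93.4%), against 43.5% of all 19938 genes, and in 41 after quantile normalization. Its median was -0.15 (quartiles -0.24 and -0.06) against 0.03 over all genes, which is a small difference, and it ran from -0.59 for Rplp0 to 0.24 for Rpl10l. In 36 members (59%) every deleted array read below every control array, and in 1 (Rps27l) every deleted array read above, where 8.68% and 12.5% of all genes did so. The single member past the threshold was Rps14 (limma, adjusted p under 0.05 over all genes), where 0.732% of all genes were called lower. None was called higher, where 0.702% of all genes were (1.43% in either direction). At an unadjusted p under 0.05, 15 members were lower and 0 higher, against 6.77% and 9.1% of all genes. The members share the arrays and their scaling, so these counts are not independent observations.

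**Figure D1:**
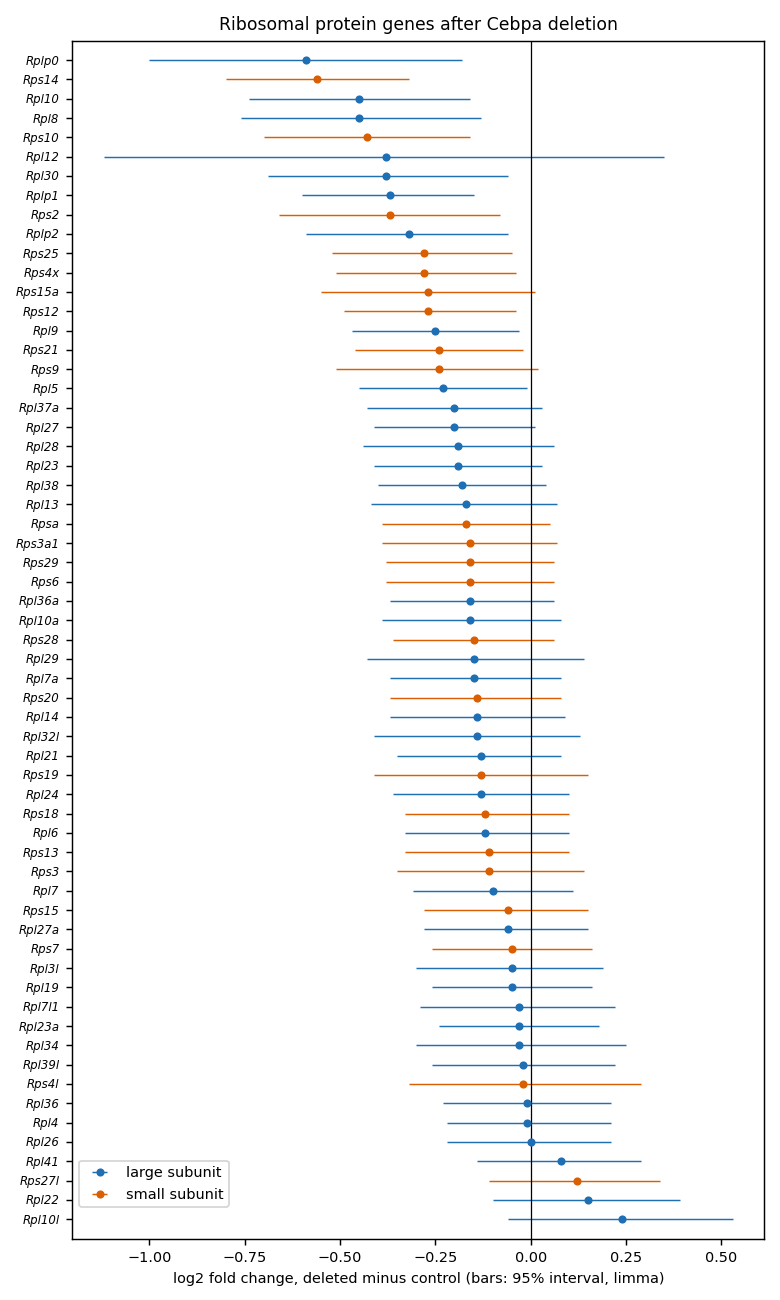
Log2 fold change (deleted minus control, x axis) of each of the 61 members (rows, ordered by value), with 95% intervals from the limma fit, n = 3 mice per genotype. Of the 61 points, 57 lie left of 0, from -0.59 for Rplp0, and 4 lie right of it, up to 0.24 for Rpl10l, and most intervals cross 0; after quantile normalization 41 would lie left of 0.

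The direction depended in part on how the arrays were scaled. After quantile normalization of all deposited rows the members' median was -0.04, with 41 of 61 below 0, beside an all-gene median of 0.05. With each array centred on its median these were -0.10, 48 and 0.08, and after cyclic loess -0.09, 49 and 0.01. The members therefore lay below the middle of all genes under each of these scalings, while the sign of the smaller differences did not hold under all of them: 16 members turned from negative to positive after quantile normalization, 9 with centred arrays and 8 after cyclic loess.

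The ribosomal stalk, which recruits the translation factors to the large subunit, is made of P0, P1 and P2, and its 3 genes were among the 10 members with the most negative fold changes. Rplp0, the base of the stalk, read 13.29, 13.44 and 13.03 in controls a, b and c and 13.05, 12.58 and 12.34 in deleted a, b and c. Deleted a lay level with control c, so the genotypes overlapped, and the deleted arrays spread widely (log2 fold change -0.59 ± 0.18, SE; adjusted p = 0.154 in the limma fit). Rplp1 read 12.76, 12.79 and 12.64 against 12.39, 12.38 and 12.29, with no overlap and a tight spread within each genotype (-0.37 ± 0.10; limma adjusted p = 0.106). Rplp2, the partner of P1 in the stalk's dimers, read 10.31, 10.42 and 10.45 against 9.97, 10.27 and 9.98 (-0.32 ± 0.12; limma adjusted p = 0.21). All 3 kept a negative sign under every setting tried, and none passed the threshold in the reported fit (Rplp1 did with an intensity trend, at a limma adjusted p = 0.0192).

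Rps14, a small subunit protein whose loss from a single chromosome copy is linked to the anaemia of the human 5q- syndrome, was the member that passed. Its 6 values were 13.54, 13.60 and 13.39 in controls and 13.03, 12.97 and 12.85 in deleted mice, so the lowest control array stood above the highest deleted one. It fell 1.47-fold (95% interval 1.25 to 1.74; log2 fold change -0.56 ± 0.11, SE, n = 3; limma adjusted p = 0.0406). A second probe set for the gene, at a mean of 12.20, gave -0.59. The call was a near one: the adjusted p ran from 0.0539 to 0.145 when any 1 of the 6 arrays was left out, and it was 0.0979 after quantile normalization, 0.0502 with arrays centred on their medians 0.056 after cyclic loess and 0.14 when every deposited probe set was tested, with a fold change between -0.62 and -0.40 throughout.

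Of 15 listed genes whose ribosomal proteins are linked to inherited or acquired red cell failure, 8 were measured here. All 8 had negative fold changes with a median of -0.16, of which Rpl26 (0.15) and Rps7 (0.10) turned positive after quantile normalization. Rpl26 was also positive with centred arrays (0.05) and after cyclic loess (0.08), and Rps7 after cyclic loess (0.03). Apart from Rps14 none passed. Rps10 had the largest difference of the others, with 12.71, 12.93 and 12.63 in controls and 12.44, 12.35 and 12.18 in deleted mice and no overlap (-0.43 ± 0.12; limma adjusted p = 0.121). Rpl5, which carries the 5S ribosomal RNA into the large subunit and can bind Mdm2, read 12.45, 12.44 and 12.30 against 12.19, 12.17 and 12.17 (-0.23 ± 0.10; limma adjusted p = 0.303). Rps19, the gene most often affected in Diamond-Blackfan anaemia, read 11.30, 11.35 and 11.51 against 11.05, 11.29 and 11.43, and its genotypes overlapped. Rpl26 was flat, at 12.92 to 13.03 in controls and 12.95 to 13.03 in deleted mice. Rps7 (-0.05), Rps28 (-0.15) and Rps29 (-0.16) lay between.

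Among the other large subunit genes, Rpl10, which completes the subunit late in its assembly near the catalytic centre, read 12.66, 12.74 and 12.46 in controls and 12.39, 12.13 and 12 in deleted mice. Its genotypes did not overlap (-0.45 ± 0.13; limma adjusted p = 0.134). Rpl8, also close to the catalytic centre, read 12.37, 12.36 and 12.01 against 12.01, 11.74 and 11.65, with control c and deleted a almost level but no overlap (-0.45 ± 0.14; adjusted p = 0.158 by limma). Rpl30 was at 8.96, 9.32 and 8.83 against 8.55, 8.77 and 8.67, a probe set well below the level of most members (-0.38; limma adjusted p = 0.224). Rpl36a read 13.22 on each control array and 13, 13.04 and 13.14 in deleted mice (-0.16; limma adjusted p = 0.484). Rpl12, a protein of the stalk base, had the widest spread, 7.14, 7.06 and 6.49 against 6.56, 7.26 and 5.73. Its difference of -0.38 ± 0.33 rested on deleted c, without which it was 0.01.

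In the small subunit, Rps2, which lines the messenger RNA entry channel, read 12.73, 12.74 and 12.56 in controls and 12.54, 12.26 and 12.11 in deleted mice (-0.37 ± 0.13; limma adjusted p = 0.198). Rps6, the substrate of the S6 kinases and a usual readout of TOR activity, read 13.54, 13.51 and 13.56 against 13.30, 13.38 and 13.46, a small difference without overlap (-0.16; limma adjusted p = 0.491). Rpsa, which is also known as the laminin receptor, read 13.22, 13.31 and 13.32 against 13.05, 13.14 and 13.16 (-0.17; limma adjusted p = 0.453). Rps25, Rps4x, Rps12 and Rps21 had fold changes between -0.28 and -0.24 with no overlap, at limma adjusted p from 0.224 to 0.268. The members not named in this account lay between -0.27 (Rps15a) and -0.01 (Rpl36; 0.12 after quantile normalization).

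A few members hardly moved or pointed up. Rpl4 and Rpl23a, 2 bright large subunit genes, had fold changes of -0.01 and -0.03 (0.12 and 0.09 after quantile normalization), with Rpl23a between 13.26 and 13.31 on all 6 arrays. Those in the positive direction were Rpl41, Rps27l, Rpl22 and Rpl10l. Rpl41, which encodes a very short peptide of the subunit interface, read 12.86, 12.80 and 12.88 in controls and 12.97, 12.94 and 12.86 in deleted mice. Rpl22, an RNA-binding protein dispensable for the ribosome's core work but needed in developing lymphocytes, read 10.85, 10.97 and 11.04 against 10.97, 11.14 and 11.19. Both sets of values overlapped between the genotypes, and the 95% intervals of the fold changes ran from -0.14 to 0.29 and from -0.10 to 0.39.

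The medians of the subunits were close. The median log2 fold change was -0.14 in the 38 large and -0.16 in the 23 small subunit genes, with 35 of 38 and 22 of 23 below 0. Every deleted array lay below every control array in 19 large (50%) and 17 small subunit genes (73.9%), against 8.68% of all genes, and above in 1 small subunit gene (Rps27l). Such separation was also more frequent in bright members (72.7% at a mean of 12 or more, 23.5% under 12). The subunits were not matched for brightness, with lowest means of 4.14 in the large and 7.38 in the small. The difference between the medians, 0.02, changed sign after cyclic loess (-0.01) and ranged from -0.01 to 0.09 when single arrays were left out.

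Paralogues with restricted expression are known for several of these genes, and 6 of the 8 listed were measured. Rpl3l, of heart and skeletal muscle, read 5 to 5.27 over the 6 arrays, and Rpl39l, of the testis, 4.04 to 4.29, both below the median of all values. Rps4l lay at 7.19 to 7.58. For these 3 the genotypes overlapped and the fold changes were -0.05, -0.02 and -0.02. Rpl7l1, which works in the assembly of the large subunit, read 8.76, 8.78 and 8.97 in controls against 8.95, 8.68 and 8.78 in deleted mice. Rps27l, a target of p53, read 10.75, 10.87 and 10.89 against 10.90, 11.03 and 10.94, with the lowest deleted array 0.01 above the highest control (fold change 0.12; limma adjusted p = 0.629). Rpl10l, the autosomal copy of X-linked Rpl10 that serves in male germ cells, was the member with the highest fold change, at 6.04, 6.05 and 5.67 against 6.26, 6.19 and 6.03. Over these 6 paralogues the median fold change was -0.02 and 4 of 6 were below 0. None separated the genotypes downwards, where 8.68% of all genes did, so among 6 genes this says little.

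Each paralogue was also read against its partner within an array, where a shift of the whole array cancels. In 3 pairs both genes were measured, and here the ratio is between different probe sets, so only its change is read. The log2 ratio of Rpl10l to Rpl10 was -6.62, -6.69 and -6.79 in controls and -6.13, -5.94 and -5.97 in deleted mice, a change of 0.69 with no overlap. The exact two-sided permutation test gave p = 0.1, the smallest that 3 against 3 arrays allows (0.3 after Benjamini-Hochberg adjustment over the 3 pairs). Most of this change came from Rpl10, and the probe set of Rpl10l lay below the median of all values on most arrays. For Rps4l to Rps4x the ratio changed by 0.26 (exact permutation p = 0.2, adjusted 0.3), and for Rpl7l1 to Rpl7 by 0.07 (exact permutation p = 0.5, adjusted 0.5).

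Because most members are very bright, they were set beside other genes of the same brightness. At a mean of 12 or more on the log2 scale there were 44 members and 85 other genes. The members had 43 of 44 fold changes below 0 with a median of -0.16, and 32 (72.7%) separated the genotypes downwards. The others had 41 of 85 below 0 (48.2%) with a median of 0.01, and 22 (25.9%) separated downwards. In steps of 0.5 among these bright genes, the gap was widest from 12 to 12.5, with a median of -0.24 for 9 members against 0.08 for 52 others. From 12.5 to 13 the median was -0.13 for 14 members against -0.07 for 24 others, and from 13 to 13.5, -0.17 for 19 members against -0.09 for 8 others. In these 2 steps the other genes were also mostly below 0 (16 of 24 and 5 of 8), beside 13 of 14 and 19 of 19 members. Above 13.5 were 2 members (-0.15) and 1 other gene (-0.18). Of the 85 other genes 52 lay from 12 to 12.5, but only 9 of the 44 members did. The pooled medians of -0.16 and 0.01 are therefore not matched for brightness within this range. Over all steps, the mean gap between the medians of members and of other genes, each step weighted by its number of members, was -0.13. Among genes at 12 or more, the medians after quantile normalization were -0.03 for members and 0.12 for others. With centred arrays they were -0.11 and 0.06, and after cyclic loess -0.08 and 0.08. The gap in this pooled set was thus of like size on these scales, while gaps by step are not given for them.

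**Figure D2:**
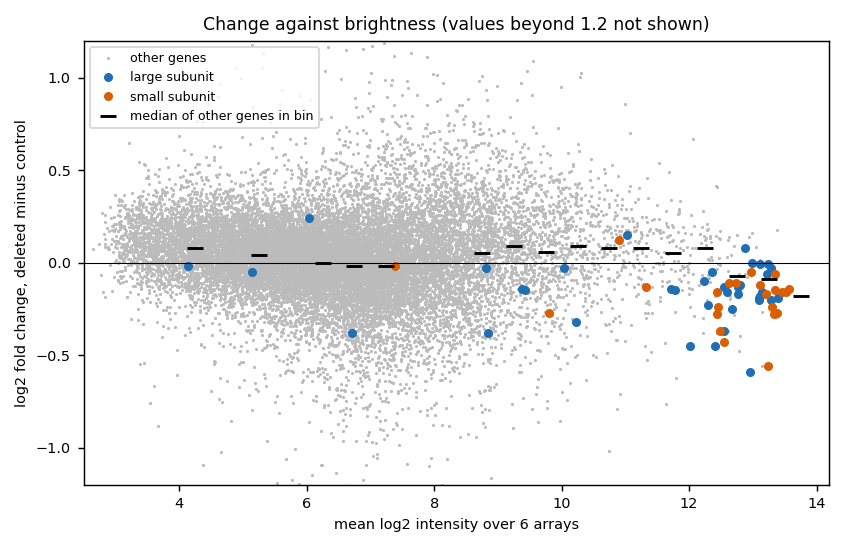
Log2 fold change (deleted minus control, y axis) against mean log2 intensity over the 6 arrays (x axis) for all genes and for the 61 members. At a mean of 12 or more the 44 members centre on -0.16 and the 85 other genes on 0.01, while both sets overlap. Most of these other genes lie from 12 to 12.5 and most of these members above 12.5.

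Array by array, the median over the 61 members was 12.76, 12.79 and 12.68 in controls a, b and c and 12.55, 12.58 and 12.46 in deleted a, b and c, so all 3 deleted arrays lay below all 3 controls. Measured from each member's own mean, the median deviation was 0.08, 0.08 and 0.05 in controls and -0.06, -0.07 and -0.05 in deleted mice. The bright other genes deviated by 0.01, -0.01 and 0.00 against 0.03, 0.01 and -0.01. The lowest array differed between members: among controls it was a in 15, b in 14 and c in 32, and among deleted arrays a in 24, b in 12 and c in 25. In 20 of them, Rplp0, Rpl8, Rpl10, Rps2, Rps10 and Rps14 included, c was the lowest array of both genotypes, and their median fold change was -0.25. In 24 others, such as Rps6, Rpsa, Rplp2 and Rpl23, deleted a was the lowest of the deleted arrays, and the median was -0.14. Over all genes, same-lettered arrays did not deviate together, so the letters were not used to pair mice across genotypes. This cannot show what the letters stand for.

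**Figure D3:**
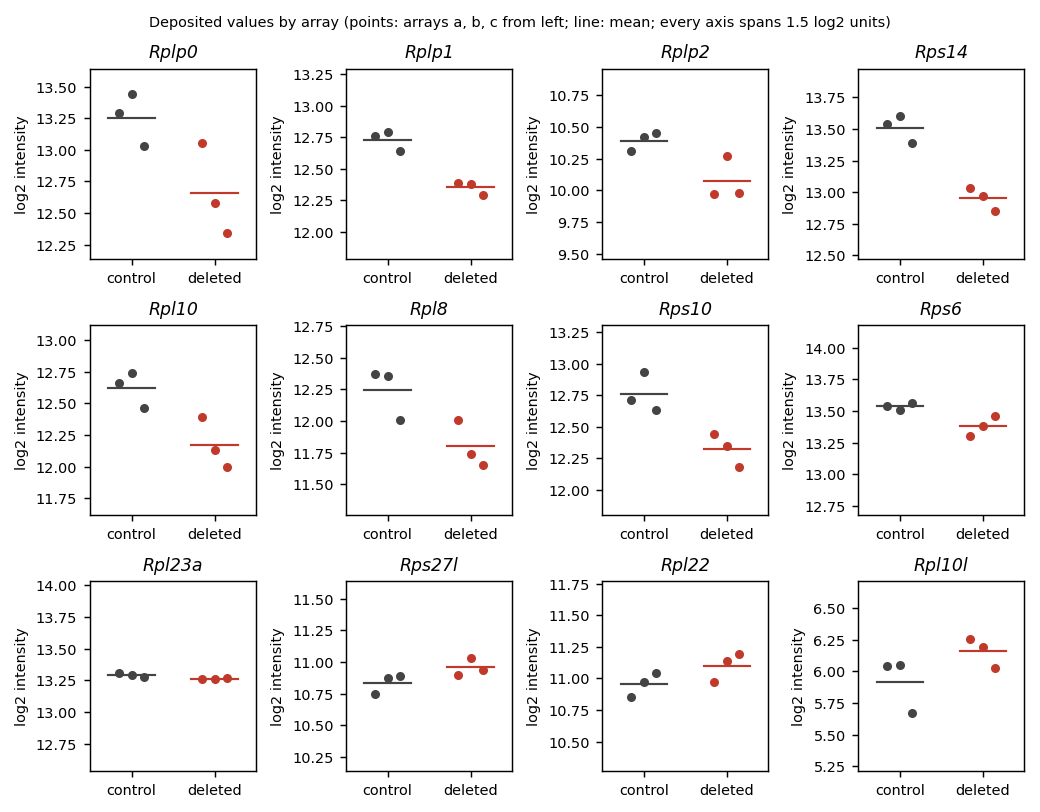
Log2 intensity (y axis, each panel spanning the same range of log2 units) of 12 members on the 3 control and 3 deleted arrays (points, a to c from the left; lines are means). Rps14 separates the genotypes (13.39 to 13.60 against 12.85 to 13.03), Rplp0 overlaps, Rpl23a stays within 13.26 to 13.31, and control c and deleted c are low for Rplp0, Rpl8, Rpl10 and Rps10.

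Several probe sets can name 1 gene, and ribosomal protein genes have many processed copies in the genome, so probe sets may also pick up related sequences. The 61 members had 217 probe sets, 22 members having 1 and 39 several. Of the 217, 203 had negative fold changes (median -0.17), and of the 156 that were not used for the values above, 146 did (median -0.18). Probe sets shared with other genes, which the members exclude, gave 234 of 239 below 0 with a median of -0.17, against 16648 of all 35556 probe sets and a median of 0.02. Within genes the fold changes of probe sets had a pooled SD of 0.08, and the SD of the gene medians was 0.14 over the same 39 genes. The SD of 0.08 counts 19 probe sets with the same values as another, which narrows it. Probe sets of a gene also share the same 6 arrays, so it does not measure the spread between mice. On these arrays the probe sets of a gene tended to give like differences: the 6 of Rpl10 gave -0.62 to -0.37 and the 13 of Rpl23a -0.06 to 0.00. Rpsa ran from -0.76 to -0.17 over 5 and Rpl13 from -0.43 to -0.17 over 9 (median -0.32). In both the probe set used was the least negative, so its value is not typical of the gene. Rplp0 was also less even, with -0.59 and, from a probe set at a mean of 11.12, -0.31, and here the probe set used was the more negative. Among the 39 genes, 33 had all probe sets below 0, 5 had both signs and 1 (Rpl41) had all above, though its 3 probe sets hold identical values and so give a single measurement. Some probe sets repeat each other, as 5 of the 14 for Rps12 hold identical values on all arrays, and 205 of the 217 are distinct.

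**Figure D4:**
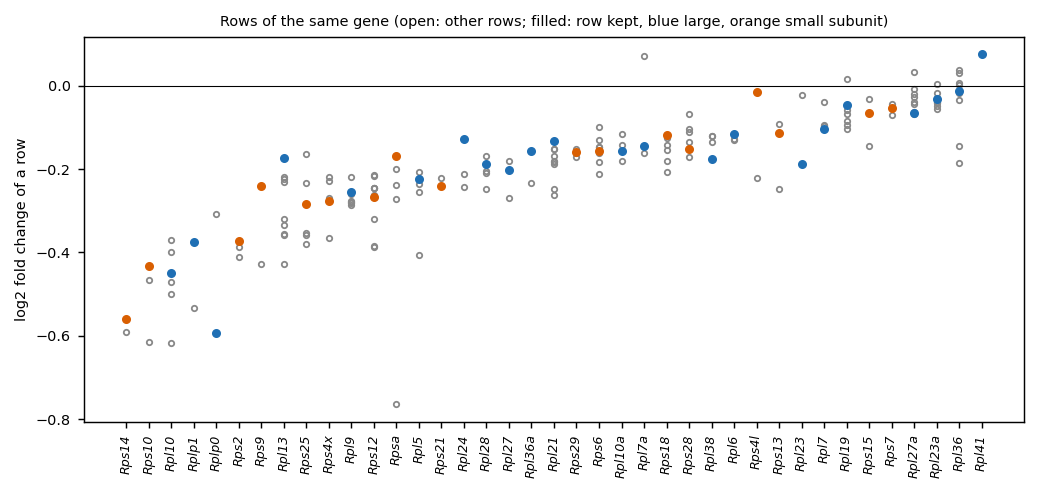
Log2 fold change (deleted minus control, y axis) of every probe set that names 1 member alone, for members with several (x axis; filled points are the probe sets used, blue large and orange small subunit, and open points the others). Probe sets of a gene mostly lie close together, with Rpl10 between -0.62 and -0.37 and Rpl23a between -0.06 and 0.00.

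Genes that work beside the ribosomal proteins were mixed. Fau, a ubiquitin-like protein fused to the small subunit protein eS30, read 12.55, 12.49 and 12.16 in controls and 12.12, 11.94 and 12 in deleted mice, without overlap (-0.38; limma adjusted p = 0.184). Of 32 genes listed as translation factors or other messengers with a pyrimidine start, Fau included, 26 were measured, with 12 below 0 and a median of 0.02. Whether each of them has a pyrimidine start was not checked here. Of these Eif4a2, an RNA helicase of translation initiation, read 11.38, 11.22 and 11.13 against 10.40, 9.89 and 10.39 and fell (-1.02 ± 0.15; limma adjusted p = 0.0151). Eif3m, a subunit of the initiation factor eIF3, had the next smallest p, with a fold change of 0.46 (limma adjusted p = 0.151). Eef1a1, the main elongation factor, and Tpt1, both with classic pyrimidine starts, had fold changes of -0.27 and -0.16 and did not pass.

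No gene passed in the lists of signalling and control. In the list of TOR pathway genes and regulators of messengers with a pyrimidine start, 16 of 17 genes were measured, 9 below 0 with a median of -0.03. The smallest p belonged to Larp4 (0.41) and Rheb (0.35), the activator of TOR complex 1 (adjusted p = 0.168 for each in limma). The 3 probe sets of Larp4 ran from -0.07 to 0.41, with 1 below 0. The p53 response, which can follow faulty ribosome assembly, had 13 of 16 measured and a median of 0.02. Its members with the smallest p were Pmaip1 (0.62; limma adjusted p = 0.0811) and Tnfrsf10b (-0.50; limma adjusted p = 0.103). All 10 listed transcription factors of ribosomal protein genes were measured, 8 above 0 with a median of 0.06, and those with the smallest p were Mycn (0.27) and Zbtb33 (0.37).

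Genes with the Mrpl and Mrps symbols of mitochondrial ribosomal proteins, taken after the data were seen, mostly had positive fold changes. The symbol alone does not show that a protein, such as that of Mrps36, belongs to the mitochondrial ribosome. Of 77 genes, 66 lay above 0, with a median of 0.16, and 63 to 71 did so under the other scalings. Of them 3 passed, all higher, and 29 separated the genotypes upwards, where 0.702% and 12.5% of all genes did. Mrps22 read 9.02, 8.92 and 9.30 in controls and 10.08, 9.86 and 10.03 in deleted mice and rose (0.91 ± 0.13; limma adjusted p = 0.0119). Mrps36 rose by 0.85 and Mrpl58 by 0.58 (adjusted p = 0.0187 and 0.0297 in limma). The median of the mitochondrial set was 0.19 after quantile normalization, 0.21 with centred arrays and 0.15 after cyclic loess. These genes are dimmer than most members (means from 5.98 to 11.66), so brightness differs between the sets as well.

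**Figure D5:**
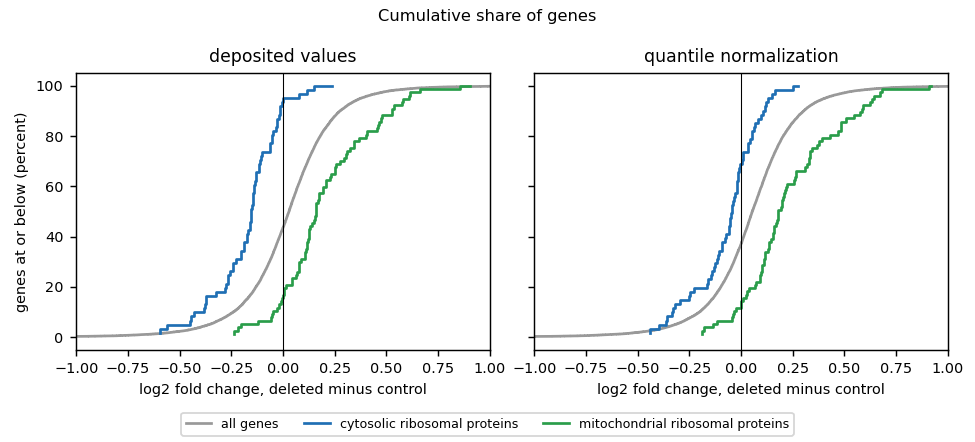
Cumulative share of genes (y axis, percent) at or below each log2 fold change (x axis). Curves show all genes, the 61 cytosolic ribosomal protein genes and the 77 genes with mitochondrial ribosomal protein symbols. Deposited values are on the left and values after quantile normalization on the right. The cytosolic curve lies left of the curve of all genes and the mitochondrial one right of it, with medians of -0.15, 0.03 and 0.16 on the deposited values. After quantile normalization the cytosolic median is -0.04 and the mitochondrial 0.19.

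Outside the family, the genes whose 6 values ran most like the median member were Pan3 (Pearson r = 0.998 over the 6 arrays), Slc16a6, Atp13a1 and Sfi1 (0.997 each) and Cd68 (0.996), among 9911 genes at or above the median brightness. With 6 arrays in 2 groups such a profile is mainly the step between the genotypes, which these genes share. Cd68, a lysosomal protein of macrophages, fell (-0.90 ± 0.10; limma adjusted p = 0.0052), and the other four did not pass.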

How the data were processed

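RNA of 6 mice, 3 per genotype, was amplified from a small input, labelled and hybridised to 1-colour arrays, per the labels' protocols. The deposited values are log2 intensities, 1 per probe set. Per the submitters' processing notes the authors used RMA, which corrects background, scales arrays to each other and summarises probes, with Affymetrix Expression Console 1.1.2. The options set for RMA, and the build behind the annotation, were not given in the sources used here.

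Values were used as deposited. Of 35556 probe sets, 21789 name 1 gene, 1621 several, and 12146 are unnamed here in GEO's platform annotation. Of the gene IDs, 19856 matched RefSeq GRCm38.p6, which changed 0 symbols. Probe sets naming 1 gene gave 19938 genes, read by the brightest probe set, with no filter on dim ones. The genotypes' test was limma 3.58.1 under R 4.3.3 (lmFit, then eBayes, no block, two-sided, Benjamini-Hochberg over all genes, threshold 0.05, prior of 5.52 degrees of freedom), tested on simulated data. Log2 fold changes are deleted minus control. Gene lists are described by counts and medians with no list test. Arrays carry no read depth, and with 3 per genotype their number limits the precision.

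The members, lists and paralogues were chosen with earlier results of these data known. Named were Cebpa, members past the threshold, the 8 most negative and 4 most positive members, paralogues and partners, members of the role lists, from other lists the genes past the threshold and the 2 with the smallest p, and the 5 other genes closest in profile. Others mentioned were chosen after their values were seen. The alternatives were other scalings (quantile, median, cyclic loess), an intensity trend or robust prior, filters on dim genes (25th percentile and median), other uses of several probe sets, a replicate block, array weights and leaving out each array. Same-lettered arrays did not deviate together over all genes (correlations of deviations -0.0114, -0.0386 and 0.0609), so the reported fit did not pair mice by letter.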

Additional observations from a re-analysis of the deposited data

How the results depend on the processing

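The count of members called lower was 1 in the reported fit and 0 after quantile normalization, with arrays centred on their median, after cyclic loess, when every deposited probe set was tested and with the replicate block (Rps14 adjusted p = 0.0551). It was 3 with an intensity trend (Rplp1, Rps12 and Rps14) and 0 to 0 when each array was left out in turn. No member was called higher under any alternative run. The median fold change of the members, -0.15, was -0.04 after quantile normalization, -0.10 with centred arrays, -0.09 after cyclic loess and -0.17 over every probe set that names 1 member. The median of all genes itself shifted by 0.03, 0.05 and -0.02 under these scalings. Against genes of equal brightness the weighted mean gap of -0.13 was -0.14 to -0.11 when single arrays were left out (-0.11 without deleted c). It was -0.16 in steps with 20 or more other genes. Without steps or weights, the gap between the medians of all genes at 12 or more was -0.17. Both of these last choices were made after seeing the data. The difference between subunit medians, 0.02, was -0.01 after cyclic loess, 0.04 for genes with 1 probe set and -0.01 to 0.09 without single arrays, below 0 without control c or deleted a. Over all 61 members, 16 turned from negative to positive after quantile normalization, 9 with centred arrays, 8 after cyclic loess and 21 under any setting run, and 0 turned the other way. Among the genes followed through every setting, signs reversed for Rpl26 (0.15) and Rps7 (0.10) after quantile normalization. Rpl26 was also positive with centred arrays (0.05) and after cyclic loess (0.08), and Rps7 after cyclic loess (0.03). Signs also reversed for Klf1 without deleted a (0.05, with -0.22 to 0.05 over single arrays left out) and for Rpl12 without deleted c (0.01, with -0.75 to 0.01). The change of the Rpl7l1 to Rpl7 ratio reversed after cyclic loess (-0.02). Rpl3l, Rpl7l1, Rpl39l and Rps4l also crossed 0 under some settings, reaching 0.01, 0.03, 0.05 and 0.08 at most. A run of at least 6 pyrimidines at the start was found in 26 genes, in place of 17 at 8 or more. Over all genes, 286 were called (140 of them higher), 336 (207) after quantile normalization, 351 (231) with centred arrays, 438 at or above the median brightness, 13 when every probe set was tested, 274 with the replicate block and 53 to 250 without single arrays. Leaving out arrays or testing every probe set changes the number of arrays or tests; otherwise the cause was not tested. With 3 arrays per genotype, the 95% interval of a typical member (Rps6, -0.38 to 0.06) is wider than its difference.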
